A study of Mus musculus with 4 samples.

Results

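Glucocorticoid-induced genes were followed in the cerebellum of mice lacking Derlin-2 in the nervous system, as a read-out of systemic stress beside the response of the endoplasmic reticulum (ER). The set held 10 genes, Fkbp5, Sgk1, Tsc22d3, Pdk4, Cdkn1a, Plin4, Mt1, Mt2, Map3k6 and Zbtb16. All non-control probes whose RefSeq accession maps to one of them were taken, which gave 15 of 56605 probes on the array, where 22911 genes were named in all. The choice used gene names alone and no measured value, although it was made with earlier results of these data known.

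The study measured total RNA on 4 one-colour Agilent arrays, 2 per group, with all mice on a C57BL/6 background and at postnatal day 28. Control mice carried floxed Derl2 alleles (Derlin-2flox/flox) and no Cre is named for them. Knockout (KO) mice came from intercrosses of Derl2flox/flox mice with mice that express Cre from the nestin promoter. That promoter is active in neural precursors, so blood vessels, microglia and meninges of the same tissue are not its main target. The labels do not say whether each array holds 1 mouse, so the p-values measure the spread between these samples, which may in part be technical. The mice were killed by cervical dislocation; their sex, the time of day, feeding state and earlier handling are not given in the sources used here.

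Glucocorticoids are steroid hormones of the adrenal cortex, released in stress and in a daily rhythm. They cross into the brain and bind the glucocorticoid receptor, which is held ready in the cytoplasm by Hsp90 and its co-chaperones. The bound receptor enters the nucleus and activates genes at glucocorticoid response elements, paired and inverted half-sites that are often far from the gene's start. Several of the genes here also answer to other inputs, such as metal ions for the metallothioneins, p53 for Cdkn1a and fatty acids or fasting for Pdk4.

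The sequence just upstream of the start sites was searched first, because it shows which of the genes hold a receptor-type or a metal-type motif close to the start. RefSeq windows (build GRCm38.p6) matched 9 of the 10 genes with 17 start sites, 6 of them for Sgk1; Zbtb16 was not matched. The search covered 250 bases before each start, on both strands, for a full palindrome (the half-site AGAACA, 3 free bases, then its reverse complement), for a looser form within it (GNACA, 3 free bases, then its reverse complement), and for the metal response element cores TGCACNC and TGCGCNC. The full palindrome was in 0.00913% of all 32851 windows, and 1 of its 3 windows belonged to Sgk1. The looser form was in 0.387% of all windows and in those of Sgk1, Map3k6 and Mt1. TGCACNC was in 10.4% of windows, with Mt1 and Mt2 among them, and TGCGCNC in 12.5%, with Mt2 among them. The 4 stretches with a match are shown 5′ to 3′ on the plus strand, which is the strand of each gene, with matches in capitals. They lie at chr10:21993681-21993735 for Sgk1, chr4:133240617-133240669 for Map3k6, chr8:94178975-94179088 for Mt1 and chr8:94172375-94172594 for Mt2.
Sgk1: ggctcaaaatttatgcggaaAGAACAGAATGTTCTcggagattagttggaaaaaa
Map3k6: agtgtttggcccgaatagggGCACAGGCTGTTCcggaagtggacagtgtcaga
Mt1: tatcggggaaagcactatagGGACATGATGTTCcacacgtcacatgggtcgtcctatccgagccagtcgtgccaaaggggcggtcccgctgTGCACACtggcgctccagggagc
Mt2: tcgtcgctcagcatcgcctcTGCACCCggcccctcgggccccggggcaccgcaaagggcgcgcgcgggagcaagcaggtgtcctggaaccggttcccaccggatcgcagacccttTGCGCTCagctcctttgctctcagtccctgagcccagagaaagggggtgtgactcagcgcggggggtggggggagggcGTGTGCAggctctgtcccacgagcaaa

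In Sgk1 the palindrome lies 189 to 175 bases before 1 of its 6 starts, in Map3k6 the looser match lies 181 to 169 bases before the start, and in Mt1 it lies 94 to 82 bases before the start. In Mt1 the second run of capitals, and in Mt2 all 3 runs, are metal response element cores, the last one of Mt2 read from the opposite strand. A match describes the letters only. These windows say nothing about elements farther away.

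Values are log2 processed signal minus the array's 75th percentile, so a value of 0 is the signal of the probe at that percentile and a difference of 1 is 2-fold. Derl2 was lower on both KO arrays. In log2 units, KO minus control was −1.41 (SE 0.11) on its brighter probe and −1.73 (SE 0.10) on the dimmer one. Neither Derl2 probe passed the adjusted threshold of 0.05, since limma gave 0.273 for each after adjustment. Missing that threshold therefore does not show that a gene is unchanged. All 10 Purkinje and granule cell markers, among them Pcp2 and Gabra6, were well above background on all 4 arrays, while the forebrain marker Emx1 was so on 0 arrays and Tbr1 and Neurod6, both dim, on 4. The sample labelled control replicate 2 stood apart: all 8 choroid plexus markers were highest on it, with a summed signal of 242 times the 75th percentile against 24.6 to 33.4 on the other arrays. All 5 red blood cell markers tested were highest there too, with a summed signal of 585 against 396 to 413. Astrocyte and Bergmann glia markers (7 of 7 well above background, summed signal 371 to 383) and endothelial and pericyte markers (8 of 8, summed signal 23.2 to 26.8) were closer together. In whole tissue, fewer cells of a type and less RNA per cell cannot be told apart. The groups also cannot be told apart from slide position, since controls and knockouts lay beside their own kind.

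None of the 10 genes separated KO from control. For 9 of them, all but Mt1, the samples within each group differed by more than the group means did, and 5 of the 10 genes had the same order of arrays. KO replicate 2 was the highest of the 4 arrays for 9 genes, all but Sgk1, against 22.7% of all tested probes. It exceeded KO replicate 1 for 10 of 10 genes (46.3% of all tested probes), and control replicate 1 was above control replicate 2 for 9 of 10 (50% of all tested probes), Cdkn1a being the exception. Both held for 9 of 10 genes, against 18.8% of all tested probes. For Fkbp5, Tsc22d3, Plin4, Map3k6 and Zbtb16 the whole order was KO replicate 2, control replicate 1, KO replicate 1, control replicate 2, which 1.91% of all tested probes shared. Those with KO replicate 2 highest and control replicate 2 lowest were the same 5 of 10 genes, against 5.78% of all tested probes. These orders were read after the values were seen and are a description of 4 arrays, without a test. They counted the brightest probe of each gene. With the background counted likewise, 1 probe for each of 16524 genes, KO replicate 2 was highest for 20.5%. Both replicate differences were above 0 for 19.4%, and the full order was shared by 1.94%.

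**Figure D1:**
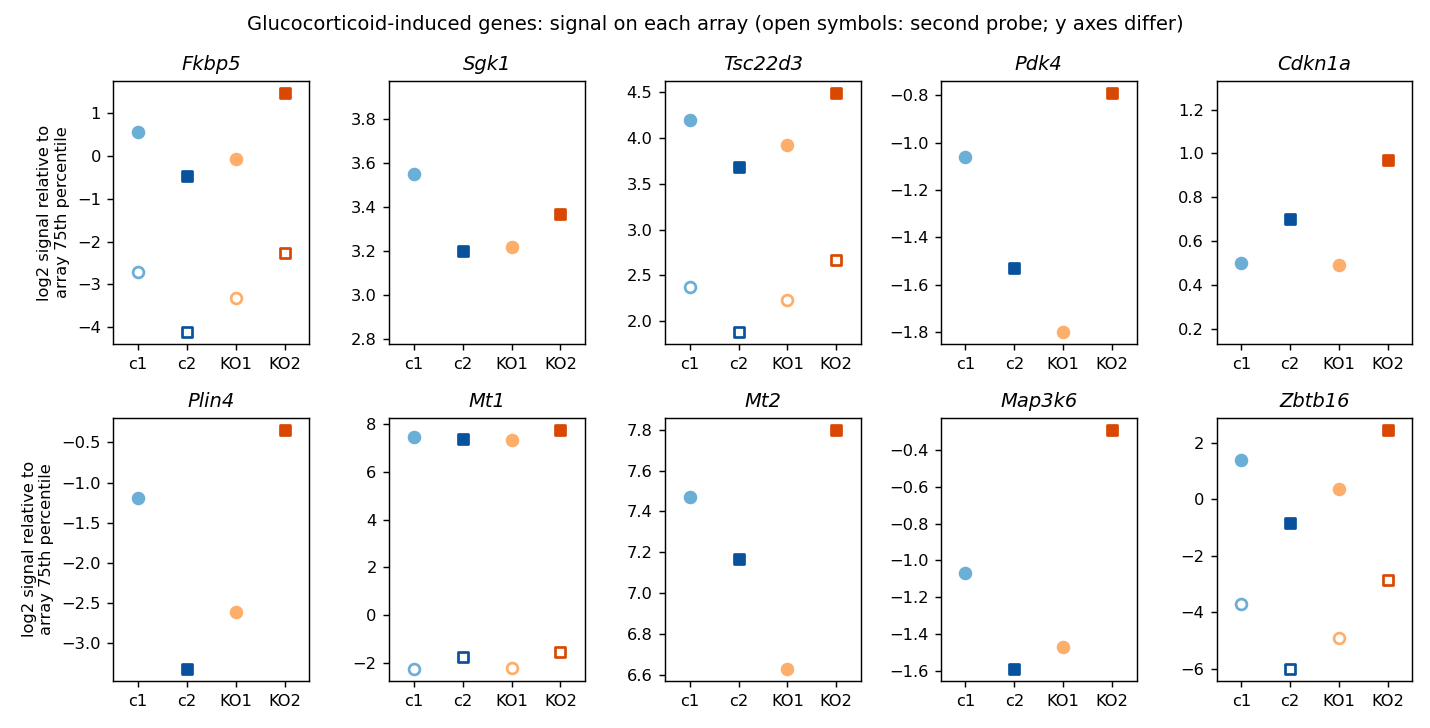
Log2 signal, as its distance from the 75th percentile of that array (y axis, scaled per gene) of the 10 genes on the arrays of control replicates 1 and 2 (c1, c2) and KO replicates 1 and 2 (KO1, KO2). Each symbol is 1 probe on 1 array, open where it is a second, dimmer probe; KO2 is the highest array for the brighter probe of every gene but Sgk1.

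Of the 15 probes, 14 passed the filter on dim probes, which asked for both arrays of 1 group or the other to be well above background, and were tested. The limma test with Benjamini-Hochberg adjustment over 37516 probes called 0 of the 14 at an adjusted p under 0.05, where the background over all tested probes was 0%. Before adjustment, 0 of 14 had a p under 0.05 either, against 14% of all tested probes (8.84% higher and 5.2% lower in KO), and under the 15 alternative settings that were refitted none of those tested passed the adjusted threshold. The groups overlapped for 10 of 10 genes, whereas 49.3% of all tested probes had groups that did not overlap. Counted with 1 probe per gene, the groups overlapped for 54.1% of 16524 genes. The median difference of KO from control was 0.20 over the 10 genes and −0.03 over all tested probes, with 7 genes higher and 3 lower. That median rested on single samples: it was −0.134 without KO replicate 2, 0.527 without KO replicate 1, 0.375 without control replicate 1 and 0.02 without control replicate 2.

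Zbtb16 encodes PLZF, a zinc finger transcription factor, and had the widest spread of the set. Its log2 signal was 1.39 and −0.84 for control and 0.36 and 2.47 for KO. The control with the higher value exceeded one knockout and fell below the other, so the groups overlapped. Control replicate 1 was 4.67-fold above control replicate 2, and KO replicate 2 was 4.33-fold above KO replicate 1. Of all tested probes, 0.096% differed at least as much in that direction between the knockouts, and 0.429% between the controls. Control averaged 0.28 ± 1.57 (SD, n = 2) and KO averaged 1.41 ± 1.5 (SD, n = 2), which differed by 1.14 (SE 1.04; limma adjusted p 0.641). That difference was 0.03 without control replicate 2 and 2.25 without control replicate 1. The second Zbtb16 probe, A_66_P119534, read −3.70 and −6.01 in control and −4.91 and −2.86 in KO. It was not well above background on control replicate 2, and it kept the same order of arrays with a difference of 0.97 (SE 1.05; limma adjusted p 0.691).

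Fkbp5 encodes FKBP51, an Hsp90 co-chaperone that lowers the receptor's affinity for hormone and so forms a short feedback loop. On the brighter probe its log2 signal was 0.57 and −0.46 for control and −0.08 and 1.47 for KO. The knockouts were 2.92-fold apart with KO replicate 2 the higher, and control replicate 1 was 2.04-fold above control replicate 2. The means were 0.05 ± 0.73 (SD, n = 2) and 0.70 ± 1.09 (SD, n = 2), a difference of 0.64 (SE 0.64; limma adjusted p 0.665). The dimmer probe, A_52_P481493, gave −2.72 and −4.12 in control and −3.32 and −2.27 in KO, again in the same order. Its difference was 0.63 (SE 0.60; limma adjusted p 0.654).

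Tsc22d3 encodes GILZ, a leucine zipper protein that carries part of the anti-inflammatory action of glucocorticoids. Its brighter probe read 4.19 and 3.68 for control and 3.92 and 4.49 for KO, and its second probe, A_55_P2741276, read 2.37 and 1.88 in control and 2.23 and 2.67 in KO. Both probes placed the arrays in the order seen for Zbtb16 and Fkbp5, over a smaller span of 1.75-fold and 1.73-fold between the highest and lowest array. The differences of KO from control were 0.27 (SE 0.28; limma adjusted p 0.676) and 0.33 (SE 0.24; limma adjusted p 0.570).

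Map3k6 and Sgk1 encode protein kinases of stress and hormone signalling. Map3k6 encodes ASK2, a kinase at the head of stress-activated MAP kinase cascades. Its log2 signal was −1.07 and −1.59 for control and −1.47 and −0.29 for KO, so that KO replicate 2 alone was well above the other arrays. It was 2.26-fold above KO replicate 1, and the difference of the means was 0.45 (SE 0.45; limma adjusted p 0.664). Sgk1, the serum- and glucocorticoid-regulated kinase, which acts on ion channels and transporters, had the narrowest span. It read 3.55 and 3.20 in control and 3.22 and 3.37 in KO, 1.27-fold from highest to lowest, and 53.4% of all tested probes had at least that span. Its highest array was control replicate 1, and its difference was −0.08 (SE 0.16; limma adjusted p 0.848). Sgk1 is the gene with the full palindrome in the sequence shown above, while Fkbp5 and Plin4, which spanned more, had no match to either form in their window. Map3k6, with a looser match, spanned 2.47-fold, and Cdkn1a, with no match to either form, 1.39-fold. A relation of match to span was not tested.

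Plin4 and Pdk4 act in fat and fuel handling. Plin4 encodes a perilipin that coats small lipid droplets. It read −1.19 and −3.33 for control and −2.62 and −0.34 for KO, a span of 7.91-fold. KO replicate 2 was 4.84-fold above KO replicate 1, which 0.08% of all tested probes equalled or exceeded, and control replicate 1 was 4.41-fold above control replicate 2. The difference of the means was 0.77 (SE 1.06; limma adjusted p 0.757). Pdk4 encodes a kinase that shuts down pyruvate dehydrogenase when fat is burned in place of glucose. It read −1.06 and −1.53 in control and −1.80 and −0.79 in KO, so the knockouts were its highest and lowest arrays. KO replicate 2 was 2.01-fold above KO replicate 1, and the means differed by −0.01 (SE 0.39; limma adjusted p 0.996).

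The metallothioneins Mt1 and Mt2 are small cysteine-rich proteins that bind zinc and copper, and they are close paralogues whose probes may share signal. Mt2 read 7.47 and 7.17 for control and 6.63 and 7.80 for KO. Here too the knockouts lay on either side of both controls, 2.24-fold apart, and the means differed by −0.10 (SE 0.42; limma adjusted p 0.923). Mt1 read 7.46 and 7.39 in control and 7.35 and 7.77 in KO, a span of 1.34-fold with the same array on top. Its difference was 0.14 (SE 0.17; limma adjusted p 0.732). A second Mt1 probe, A_52_P423810, which carries a predicted transcript's accession, read −2.26 and −1.75 for control and −2.23 and −1.57 for KO. It was also highest on KO replicate 2 but lowest on control replicate 1, so the Mt1 probes disagreed on the controls; its difference was 0.11 (SE 0.30; limma adjusted p 0.887).

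Cdkn1a encodes p21, an inhibitor of cyclin-dependent kinases. It read 0.50 and 0.70 in control and 0.49 and 0.97 in KO, and was the 1 gene of the set that was higher in control replicate 2 than in control replicate 1. Its difference was 0.12 (SE 0.20; limma adjusted p 0.795). The second Cdkn1a probe, A_55_P1986282, was not well above background on any array and was not tested.

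**Figure D2:**
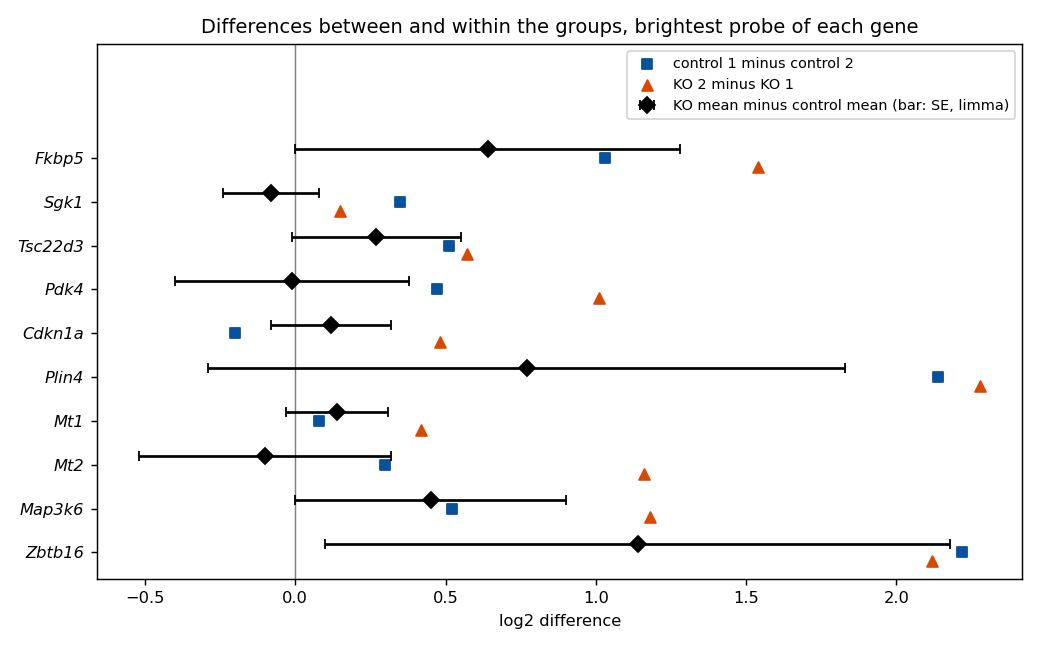
Log2 differences (x axis) for the brightest probe of each of the 10 genes (y axis): KO mean minus control mean with its limma standard error (black diamonds), control replicate 1 minus control replicate 2 (blue squares) and KO replicate 2 minus KO replicate 1 (orange triangles), n = 2 arrays per group. For every gene but Mt1 both replicate differences were larger in size than the difference between the groups.

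Set side by side, both replicate differences were larger in size than the difference of the group means for 9 of 10 genes, Mt1 being the exception, against 31% of all tested probes. The median of KO replicate 2 minus KO replicate 1 was 1.09 over the 10 genes and −0.02 over all tested probes. The median of control replicate 1 minus control replicate 2 was 0.49 over the 10 genes. Under 7 other scalings and spot rules the first median lay between 0.97 and 1.09 and the second between 0.44 and 0.49, and the count of genes with both differences above 0 was 9 under each. Relative to each gene's mean over the arrays, the set had a median of 0.20 on control replicate 1, −0.31 on control replicate 2, −0.41 on KO replicate 1 and 0.52 on KO replicate 2.

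**Figure D3:**
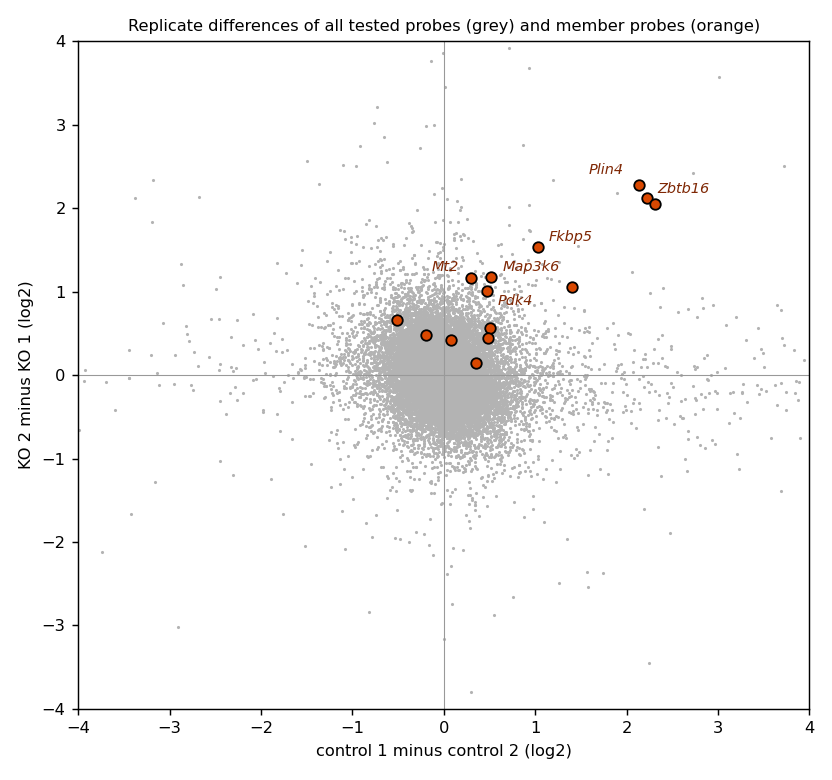
Difference between the controls (x axis, control 1 minus control 2, log2) against the difference between the knockouts (y axis, KO 2 minus KO 1, log2) for all 37516 tested probes (grey points) and for the 14 tested probes of the 10 genes (orange, with the brighter probe named where its span over the arrays was widest); 56 grey points lie beyond the axes. Probes of Plin4 and Zbtb16 lie above 2 on both axes, and all orange points lie above 0 on the y axis.

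The receptor and its partners did not share this order. Of 14 genes listed for hormone binding, activation, chaperoning and co-regulation, 13 were tested and 0 passed the adjusted threshold in either direction (limma; 0 at an unadjusted p under 0.05). KO replicate 2 was the highest array for 0 of the 13 and was above KO replicate 1 for 1 of 13, Abcb1a, a drug and steroid efflux pump of the vessel wall. On its brighter probe Nr3c1, the glucocorticoid receptor, read 4.15 and 4.17 for control and 4.17 and 3.99 for KO. That was a difference of −0.08 (SE 0.11, limma adjusted p 0.768). The dimmer Nr3c1 probe read 3.25 and 2.95 in control and 3.18 and 3.02 in KO, with a mean of 3.10 in each group. On it control replicate 1 was highest and control replicate 2 lowest. Nr3c2 encodes the mineralocorticoid receptor, which binds the same hormone with higher affinity. Its brighter probe read −2.77 and −3.15 in control and −3.14 and −3.27 in KO (difference −0.24, SE 0.17, limma adjusted p 0.543). Its dimmer probe read −4.31 and −4.36 in control and −4.32 and −4.62 in KO (difference −0.14, SE 0.14, limma adjusted p 0.678). Hsd11b1, the enzyme that regenerates active hormone from its inert form, read 3.77 and 3.82 for control and 3.69 and 3.38 for KO. Its groups did not overlap, as for 26.9% of all tested probes in that direction, and its difference was −0.26 (SE 0.14; limma adjusted p 0.476). The median difference of these 13 genes was −0.10.

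A list of 20 other genes known to respond to glucocorticoids followed the order in part. All 20 were tested, 0 passed the adjusted threshold, and 0 had an unadjusted p under 0.05 (limma). KO replicate 2 was the highest array for 13 of 20, KO replicate 2 was above KO replicate 1 for 15 of 20, and both replicate differences were above 0 for 10 of 20. The 3 genes with the smallest p were Cebpd, Gpd1 and Cebpb. Cebpd, a transcription factor of the acute phase, read 0.80 and 0.49 in control and 0.88 and 1.53 in KO (difference 0.56, SE 0.26; limma adjusted p 0.414). Its groups did not overlap, as for 22.5% of all tested probes in that direction. Gpd1, a glycerol phosphate dehydrogenase of oligodendrocytes, differed by −0.16 (SE 0.10; limma adjusted p 0.499), and Cebpb, a partner of Cebpd, by 0.30 (SE 0.18; limma adjusted p 0.503).

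The widest spans in that list, named after their values were seen, again involved KO replicate 2. Lcn2, a secreted iron-siderophore carrier of the acute phase, read −2.99 and −3.00 in the controls, −2.84 in KO replicate 1 and 0.61 in KO replicate 2. Only that array stood out, and the limma adjusted p was 0.513 (difference 1.88, SE 1.17). Sult1a1, a sulfotransferase, read 1.52 and 0.69 for control and 1.13 and 2.14 for KO, the full order seen for Zbtb16. Angptl4, an inhibitor of lipoprotein lipase, read −0.62 and 0.10 in control and −0.76 and 0.86 in KO. Klf9 and Errfi1, a transcription factor and an inhibitor of EGF receptor signalling, spanned 0.15 and 0.22 on the log2 scale. Per1, a clock gene, was highest in KO replicate 1, at 3.97, against 3.53 in KO replicate 2 and 3.89 and 3.19 in the controls.

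Genes of the other inputs to the set were read beside it. Among p53 targets, 9 of 10 listed were tested, 0 passed the adjusted threshold and 1, Plk2, had an unadjusted p under 0.05 (difference 0.31, SE 0.10; limma adjusted p 0.325), against 14% of all tested probes. Bbc3, which encodes the death-promoting protein PUMA, differed by 0.39 (SE 0.16; limma adjusted p 0.388) and Phlda3, an inhibitor of Akt, by −0.30 (SE 0.16; limma adjusted p 0.462). For 3 of these 9 the highest array was KO replicate 2. Among metal and oxidant response genes, 8 of 8 were tested and 0 passed at either threshold. Their median span over the arrays was 0.17 against 1.09 for the 10 genes. Over all tested probes the median span was 0.37, and with 1 probe per gene 0.31. A metal input to Mt1 and Mt2 was not tested. Slc30a1, the zinc exporter, differed by −0.25 (SE 0.11; limma adjusted p 0.415), Mtf1, the metal-sensing factor, by 0.08 (SE 0.11; limma adjusted p 0.764) and Gclc, of glutathione synthesis, by −0.06 (SE 0.12; limma adjusted p 0.832). Mt3, the neuronal metallothionein, read 2.99 and 3.01 for control and 3.03 and 3.07 for KO.

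Among genes of fasting and fatty acid use, 8 of 9 were tested and 0 passed at either threshold. Cpt1a, which admits fatty acids to mitochondria, differed by −0.29 (SE 0.11; limma adjusted p 0.361) and Ehhadh, a peroxisomal enzyme, by −0.10 (SE 0.13; limma adjusted p 0.747).

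The ER response ran the other way between the knockouts. The list called ER chaperones here held 16 genes, among them the transcription factor gene Xbp1 and the degradation factor gene Herpud1. Of these 16 genes, KO replicate 1 was the highest array for 16 and KO replicate 2 was above it for 0. KO replicate 2 was above KO replicate 1 for all 10 glucocorticoid-induced genes and for 46.3% of all tested probes. The orders of arrays led by KO replicate 1 held 5.03%, 6.72%, 3.56%, 5%, 2.71% and 3.22% of all tested probes. Hspa5, the ER chaperone BiP, read 4.69 and 4.78 in the controls, 5.73 in KO replicate 1 and 5.38 in KO replicate 2. Both knockouts lay above both controls, as for 14 of the 16 genes of the chaperone list and 0 of the 10 glucocorticoid-induced genes. The share was 22.5% of all tested probes and 13.8% of genes counted with 1 probe each. No gene of the chaperone list passed the adjusted threshold. In that list 6 genes, all higher in KO, had an unadjusted p under 0.05 (limma), against 8.84% of all tested probes in that direction. Counted with 1 probe per gene, 522 of 16524 genes were higher in KO at that p. Within the chaperone list Xbp1, Hspa5 and Pdia6 had the smallest p, at a limma adjusted p of 0.273 each. Of 16 PERK-ATF4 response genes, KO replicate 1 was highest for 9 and KO replicate 2 for 3 (22.7% of all tested probes for KO replicate 2). Both knockouts lay above both controls for 8 of them and below for 2, against 22.5% and 26.9% of all tested probes. Of these 16 genes, 3 had an unadjusted p under 0.05 (limma), all higher in KO, against 8.84% of all tested probes. Atf3, Trib3 and Chac1 led that list, with differences of 1.07, 1.42 and 1.24 (SE 0.28, 0.39 and 0.43; limma adjusted p 0.287, 0.296 and 0.337). The difference between these lists was not tested.

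**Figure D4:**
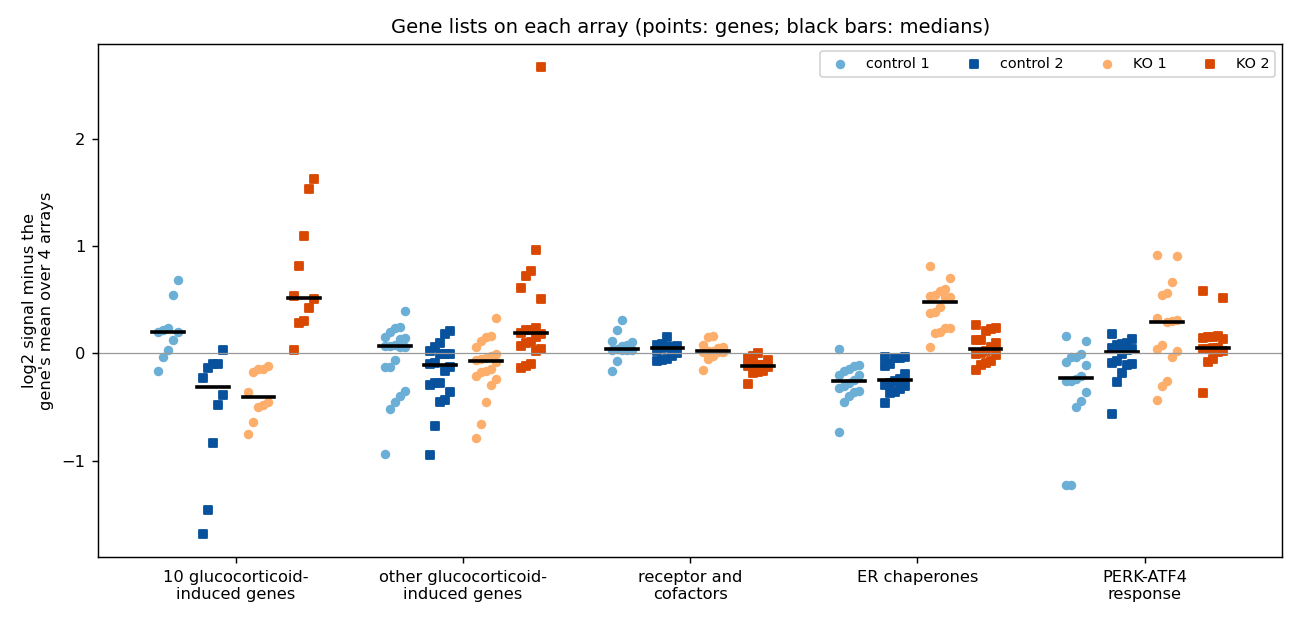
Log2 signal minus the gene's mean over the 4 arrays (y axis) for the genes of 5 lists (x axis) on each array, 1 point per gene and array, with black bars at the medians. The glucocorticoid-induced genes have their highest median, 0.52, on KO replicate 2 and their lowest, −0.41, on KO replicate 1. There the ER chaperone list, which includes Xbp1 and Herpud1, has its highest, 0.48.

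Immediate early genes, which rise within minutes of neural activity or handling, did not follow the set. All 10 were tested and 0 passed the adjusted threshold. At an unadjusted p under 0.05 (limma) 1, Arc, was lower in KO, against 5.2% of all tested probes in that direction. KO replicate 1 was the highest array for 6 and KO replicate 2 for 1 (22.7% of all tested probes for KO replicate 2). Arc was lower in KO by −0.46 (SE 0.15; limma adjusted p 0.334), Nr4a1 differed by 0.40 (SE 0.26; limma adjusted p 0.523) and Fos by 0.58 (SE 0.37; limma adjusted p 0.524). Fos read 0.11 and 1.01 for control and 1.43 and 0.85 for KO.

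Control replicate 2, the array with the raised choroid plexus and blood signal, was the lowest for 6 of the 10 glucocorticoid-induced genes. The part of those cells in the result was not tested. Within the KO group, the summed choroid plexus signal was 24.6 and 26.6 and the summed blood signal 413 and 396. The set differed there by a median of 1.09. The sums do not show each marker. Over the 8 choroid plexus markers, KO replicate 2 minus KO replicate 1 ran from −3.21 to 0.30 on the log2 scale. It was above 0 for 5 of the 8. Meningeal fibroblast markers (5 of 5 tested) were higher in KO replicate 2 than in KO replicate 1 for 5 of 5, with summed signals of 29.1 and 24.3. Oligodendrocyte markers were higher in KO replicate 2 for 5 of 6, with summed signals of 313 and 282, and 5 of 6 were also higher in control replicate 1 than in control replicate 2 (341 and 324). Microglia markers were higher in KO replicate 2 than in KO replicate 1 for 5 of 6 (summed signals 15 and 13) and higher in control replicate 1 than in control replicate 2 for 4 of 6 (16.7 and 16). Their part in the result was not tested.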

How the data were processed

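Sample titles gave the groups and replicate numbers. Per the file headers, Agilent's Feature Extraction software (12.1.1.1) wrote the deposited scanner output, whereas the submitters' processing notes name 10.7.1.1. Their processed signal is an intensity, background subtracted and detrended within each array by that software, per the file headers. The deposited series table holds log2 values by the authors, with scale and centring not given in the sources used here; it served as an alternative.

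Spots of a probe were averaged as log2, without control spots and outlier-flagged spots (65 to 176 per array), and the array's 75th percentile was subtracted. Between 66.4% and 69.4% of 59305 spots were well above background, and 0 were saturated. The number of arrays limits the precision. A probe was tested if well above background on both control or both KO arrays (37516 of 56559 with a value on every array), with limma 3.58.1 in R 4.3.3 (lmFit, eBayes, no covariates, 4.35 degrees of freedom) and Benjamini-Hochberg adjustment. The fit was also run on simulated data with known changes and independent noise for each probe. Those data held no sample differences shared by many probes, so the run does not cover them. RefSeq accessions named 32994 of 35886 probes (91.9%) through a gene table of GRCm38.p6. Counts per gene used the probe with the highest mean. Shares over all tested probes count every probe, unnamed ones included. With 1 probe per gene, both knockouts lay above both controls for 13.8% of 16524 genes and below for 32.1%. At an unadjusted p under 0.05 (limma), 522 of these genes were higher in KO and 934 lower.

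The members and lists were chosen with earlier results of these data known. The naming rule took all members, the 3 smallest p of each companion list and Nr3c1, Nr3c2, Hsd11b1, Derl2 and Mt3; other names were picked with their values in view. Some genes that the rule or a marker list takes in are not reported here. The 16 alternatives covered scaling, background correction, filters, flagged and patch spots, variance model, replicate block, single arrays left out and the mean of a gene's probes.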

Additional observations from a re-analysis of the deposited data

How the results depend on the processing

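With 2 arrays per group, 0 of the tested probes of the set passed the adjusted threshold under any of the 15 settings that were refitted (14 probes, without the dimmer Zbtb16 probe where all arrays had to be well above background), and the smallest adjusted p was 0.408. Of 153 values under settings that kept all arrays, 150 kept their direction. The exceptions were Pdk4, at 0.01 with quantile-normalized arrays and 0.08 with spike-in scaling, and Sgk1, at 0.01 with spike-in scaling. With 1 array left out, where the lone array is assumed to vary like the other group, 18 of 56 values changed direction. The ranges were −0.13 to 1.41 and −0.08 to 1.33 for the Fkbp5 probes and −0.25 to 0.10 for Sgk1. The brighter Tsc22d3 probe ran from −0.02 to 0.55, Pdk4 from −0.51 to 0.50, Cdkn1a from −0.11 to 0.36 and Plin4 from −0.36 to 1.91. For the Mt1 probes the ranges were −0.07 to 0.35 and −0.22 to 0.43, for Mt2 −0.68 to 0.48 and for Map3k6 −0.14 to 1.04. The dimmer Zbtb16 probe ran from −0.18 to 2.12. With no change of direction, the brighter Zbtb16 probe ran from 0.03 to 2.25 and the dimmer Tsc22d3 probe from 0.09 to 0.57. The median over the 10 genes then ran from −0.134 to 0.527. The count of all probes past the threshold, 0, became 1 with patch spots omitted, with spike-in scaling, with quantile normalization and with scaling to the median of bright probes, 2 under normexp and 4 under an intensity trend with robust variances; it ran from 0 to 98 with an array left out, the 98 being without control replicate 2, and the cause was not tested. Spike-in scaling moved the median difference of all probes by 0.0843. With the replicate block 0 probes passed, as without it, and the median of the set was 0.204 in both; same-numbered samples had deviations correlated at 0.124 over probes, and the labels do not pair them. The orders of the arrays and their settings were chosen after the data were seen; KO replicate 2 was highest for 9 genes under each of the 7 settings, and for 12 to 14 of the other 20 glucocorticoid-responsive genes.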

Other observations

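A limit chosen after the values were seen asked for a difference of at least 2-fold between the knockouts and at least 2-fold between the controls. Among probes well above background on all 4 arrays, 9 had KO replicate 2 over KO replicate 1 together with control replicate 1 over control replicate 2. Of these 9, 4 were probes of Zbtb16, Plin4 and Fkbp5, including both Fkbp5 probes. The other combinations of directions held 26, 12 and 12 such probes, with 0 probes of the 10 genes among them. This is a description of 4 arrays and was not tested.

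The remaining named genes among the 9 were Cd163, Acer2 and Dclre1c. Cd163, the haemoglobin scavenger receptor of perivascular macrophages, read −2.85 and −3.85 in control and −3.44 and −2.36 in KO. Acer2, a ceramidase of the Golgi, read −3.19 and −4.19 for control and −3.67 and −2.53 for KO. Both followed the order of Zbtb16. Dclre1c, the DNA repair nuclease Artemis, read −4.03 and −5.92 in control and −6.05 and −3.87 in KO, so that its lowest array was KO replicate 1.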
